A study of Mus musculus with 7 samples.

Results

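Genes of the blood-brain barrier endothelium were followed across 7 hippocampus libraries. They were chosen by name, as tight junction, adhesion, transporter and receptor genes of brain endothelial cells, and comprised Cldn5, Ocln, Pecam1, Flt1, Tek, Slc2a1, Mfsd2a, Abcb1a, Slco1c1 and Slco1a4, which are 10 of the 27583 genes in the deposited expression table. Each of the 10 was above 1 FPKM (fragments scaled to gene length and to the mapped fragments of the library) in every library. Brain capillaries are lined by endothelial cells that are sealed to each other by tight junctions, take up few vesicles from the blood, and carry dedicated transporters for glucose, lipids, thyroid hormone and organic anions. Pericytes and the endfeet of astrocytes surround these cells, and Wnt signals from the surrounding brain maintain the barrier state. Cldn5 is the defining tight junction gene of this endothelium.

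RNA came from hippocampus of male C57BL/6 mice of genotype WT, which the sample titles give as C57BL6/J. The stated design sets spinal cord injury against health, but the labels of the 7 samples are alike and do not say which animals were injured. All libraries therefore stand in 1 group, hippocampus, as replicates 1 to 7, and no injury comparison was made. Age, individual animals and treatment are not given in the labels. A p-value across libraries therefore reflects no more than how closely genes varied together over these samples, possibly for technical reasons.

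Depth was estimated at 37324418 to 38448101 reads per library. The labelled tissue was checked against marker lists: 8 hippocampal neuron genes summed to between 978 FPKM in replicate 5 and 1660 FPKM in replicate 4. Replicate 5 stood apart, since 10 striatal neuron genes summed to 1725 FPKM there against 49.7 to 62.2 FPKM in the other 6 libraries. Choroid plexus genes, 12 in all, summed to 1022 FPKM in replicate 3 and 1334 FPKM in replicate 7, against 79.7 to 346 FPKM elsewhere. Genes of blood cells, 6 in all, ranged from 91.6 FPKM in replicate 5 to 288 FPKM in replicate 1. Some results below are given with and without replicate 5, but not every value that changes without it.

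Promoter windows of Cldn5, Slc2a1 and Mfsd2a are shown because Cldn5 is the defining gene and because Slc2a1 and Mfsd2a varied together most closely in the fits below. They span 250 bases before to 50 after the gene start in RefSeq on GRCm38.p6, which held windows for 9 of the 10 genes (not Pecam1). Cldn5 is at chr16:18776597-18776896 on the plus strand, Slc2a1 at chr4:119108495-119108794 on the plus strand, and Mfsd2a at chr4:122961139-122961438 on the minus strand. Capitals mark ACGTG, the core of hypoxia response elements, and CCAAT, on either strand, so CACGT and ATTGG are marked as well.
Cldn5: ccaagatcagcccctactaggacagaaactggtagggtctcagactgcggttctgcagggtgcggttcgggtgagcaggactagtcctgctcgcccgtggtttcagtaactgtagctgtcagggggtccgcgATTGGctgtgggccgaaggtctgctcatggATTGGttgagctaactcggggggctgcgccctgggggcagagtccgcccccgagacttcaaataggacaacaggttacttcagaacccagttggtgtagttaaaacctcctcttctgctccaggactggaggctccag
Slc2a1: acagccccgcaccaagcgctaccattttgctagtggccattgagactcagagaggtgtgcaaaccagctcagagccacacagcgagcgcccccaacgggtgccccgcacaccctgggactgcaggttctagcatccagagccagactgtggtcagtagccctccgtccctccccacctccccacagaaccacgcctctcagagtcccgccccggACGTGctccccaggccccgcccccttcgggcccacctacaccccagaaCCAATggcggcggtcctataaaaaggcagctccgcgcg
Mfsd2a: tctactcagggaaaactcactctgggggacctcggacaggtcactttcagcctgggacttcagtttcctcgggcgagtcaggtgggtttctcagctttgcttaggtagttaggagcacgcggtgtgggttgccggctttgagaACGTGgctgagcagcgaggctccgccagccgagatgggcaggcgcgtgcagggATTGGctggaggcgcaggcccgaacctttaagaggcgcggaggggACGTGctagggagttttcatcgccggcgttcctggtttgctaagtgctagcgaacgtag
The letters ACGTG lay 36 bases before the start of Slc2a1 (first base at -36) and at -107 and -9 in Mfsd2a, and were not found in the Cldn5 window. Of the 9 genes with a window, 3 held ACGTG (the other was Slco1c1, where it lies within the palindrome CACGTG), as did 19.6% of 32851 promoter windows of the same length. CCAAT lay at 13 in Slc2a1 and, reversed, at -54 in Mfsd2a and at -118 and -88 in Cldn5. It was also found in Slco1c1, in Slco1a4 and in 1 of the 2 windows of Ocln, and 37.4% of all windows held it. The letters AGAACA, part of the steroid receptor element, were found in the windows of Abcb1a and Tek, and in 19.0% of all. Also searched on both strands were TATAAA (13.6% of all windows), CCGGAA (14.9%), CTTTGA (16.0%) and GGGCGG (35.7%). CTTTGA, read by TCF and LEF factors, was found in Abcb1a and Mfsd2a, and GGGCGG in Cldn5, Slc2a1, Flt1 and Ocln. TATAAA was found in Slc2a1, Flt1 and Slco1c1, and CCGGAA in Ocln. The Abcb1a window, at chr5:8566841-8567140, lies far upstream of the start that the GENCODE annotation gives for the gene, 8660077. These matches describe the letters in each window and do not show binding.

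The tight junction genes were the first compared. Cldn5, which encodes the claudin that seals the cleft between endothelial cells, had 14.1, 19.2, 16.5, 16.5, 16.8, 18.4 and 17.3 FPKM in replicates 1 to 7. Replicate 1 was lowest and replicate 2 highest, 1.36-fold apart, with 95% counting intervals (exact Poisson) of 13.2 to 15.2 FPKM and 18.1 to 20.5 FPKM. Between 760 and 1017 reads stood behind each value, and these intervals cover counting error only. In bulk RNA, fewer endothelial cells and less RNA per cell cannot be told apart.

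Ocln, which encodes the tetraspan junction protein occludin, had 3.84, 4.15, 4.41, 4.49, 2.99, 4.87 and 4.46 FPKM in replicates 1 to 7. The lowest value was that of replicate 5, and the other 6 libraries lay within 1.27-fold of each other, against 1.63-fold over all 7. Of the 16 other junction genes listed, Cldn11, a claudin of myelin, had the highest level, 99.1 to 162 FPKM. Tjp1, the scaffold protein ZO-1, had 10.9 to 12.8 FPKM, and Cldn3 stayed at or under 0.105 FPKM.

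Pecam1, the adhesion molecule CD31 that marks endothelium throughout the body, had 5.76, 7.50, 7.13, 7.03, 7.14, 7.44 and 7.26 FPKM. Replicate 1 stood below the rest, and without it the other 6 libraries lay within 1.07-fold of each other. Flt1, the VEGF receptor that binds VEGF with high affinity and signals weakly, had 3.80, 4.69, 3.92, 4.39, 3.98, 3.84 and 4.57 FPKM, highest in replicate 2. Tek, the angiopoietin receptor TIE2, had 2.49, 2.65, 2.77, 2.59, 3.41, 3.36 and 3.88 FPKM. Its values in replicates 5, 6 and 7 were above every value in replicates 1 to 4, and its highest library was 1.56-fold above its lowest.

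Kdr, the main signalling receptor for VEGF, was lower than Flt1 in each library, at 0.937 to 1.69 FPKM. Tie1, the orphan partner of TIE2, had 1.98 to 3.14 FPKM. Ligands of these receptors were measured as well: Vegfa had 8.67 to 12.8 FPKM and Angpt1, which activates TIE2, 1.22 to 1.91 FPKM.

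The transporter genes held both the highest levels and the largest ranges. Slc2a1, the glucose transporter GLUT1 of endothelium and astrocytes, had 48.4, 69.4, 67.6, 62.8, 35.8, 41.3 and 48.9 FPKM in replicates 1 to 7. Mfsd2a, the lysophosphatidylcholine transporter that brings docosahexaenoic acid into the brain and restrains transcytosis, had 8.89, 10.4, 10.3, 10.6, 6.13, 6.81 and 8.14 FPKM. Both were highest in replicates 2, 3 and 4 and lowest in replicates 5 and 6. Slc2a1 spanned 1.94-fold (1.68-fold without replicate 5) and Mfsd2a 1.73-fold (1.56-fold without replicate 5).

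Abcb1a, the efflux pump P-glycoprotein, varied least of the 10 genes, with 6.30, 7.31, 7.66, 6.42, 6.97, 6.97 and 7.72 FPKM, a range of 1.23-fold. Slco1c1, the thyroxine transporter OATP1C1, had 22.5, 18.0, 23.1, 20.9, 22.1, 25.7 and 28.5 FPKM, lowest in replicate 2 and highest in replicate 7. Slco1a4, an organic anion transporter of the luminal and abluminal membrane, had 9.95, 13.0, 12.03, 10.2, 16.5, 15.4 and 16.0 FPKM. As with Tek, its values in replicates 5, 6 and 7 were above those of replicates 1 to 4.

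Close relatives of these transporters were at much lower levels, apart from Slc2a3, the neuronal glucose transporter, at 23.1 to 27.2 FPKM. Abcb1b had 0.646 to 0.803 FPKM, Slco1a5 at most 0.156 FPKM and Mfsd2b at most 0.162 FPKM. The authors' handling of reads shared between such copies is not given in the sources used here.

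**Figure D1:**
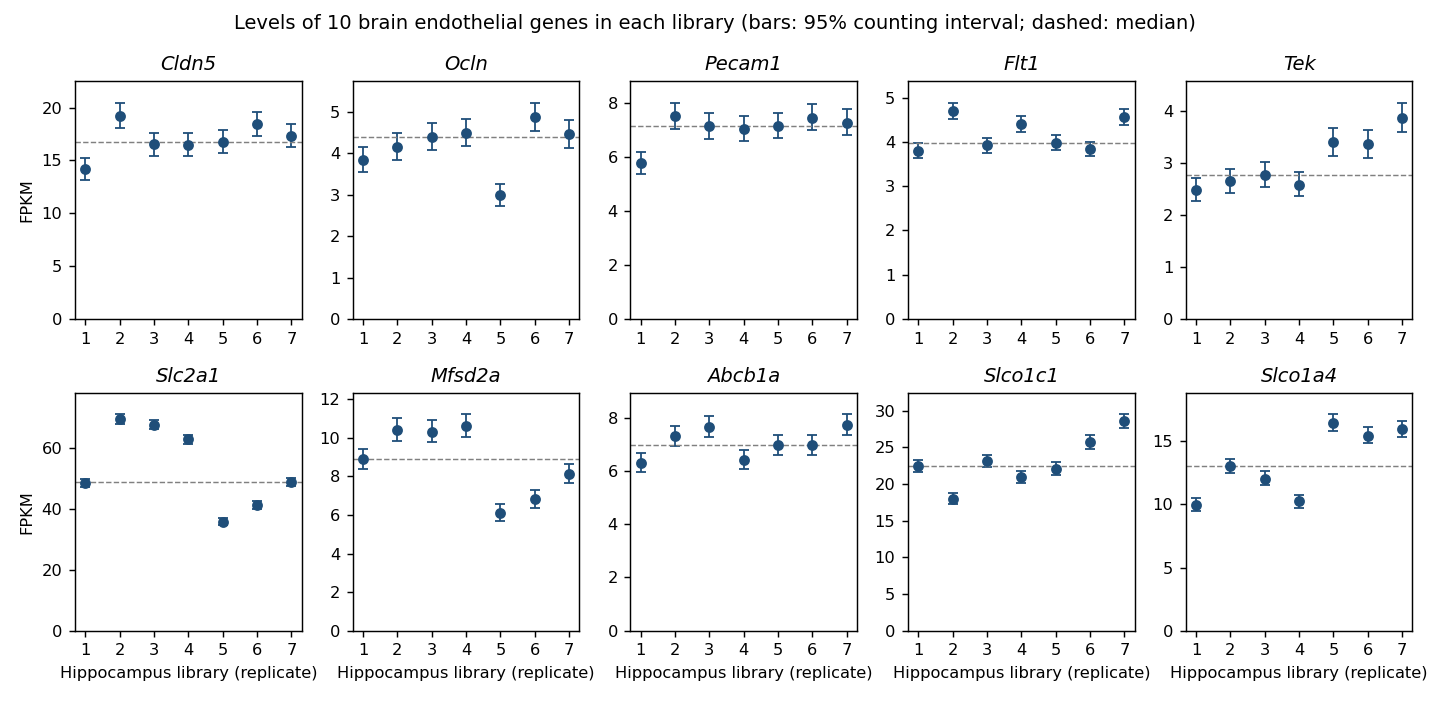
Expression of the 10 genes in each of the 7 hippocampus libraries. The vertical axis is FPKM and starts at 0, the horizontal axis is the replicate, bars are exact Poisson 95% counting intervals and the dashed line is the median library; Slc2a1 spans 35.8 to 69.4 FPKM, whereas Abcb1a spans 6.30 to 7.72 FPKM.

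By median FPKM the order was Slc2a1 (48.9), Slco1c1 (22.5), Cldn5 (16.8), Slco1a4 (13.0), Mfsd2a (8.89), Pecam1 (7.14), Abcb1a (6.97), Ocln (4.41), Flt1 (3.98) and Tek (2.77). Slc2a1 was above Slco1c1 in 7 of 7 libraries with no overlap of their ranges, and so was Abcb1a above Ocln. Every other pair of neighbours overlapped in range. Pecam1 and Abcb1a could not be ordered, Pecam1 being higher in 4 of 7 libraries, and neither could Ocln and Flt1, with Ocln higher in 4 of 7. The order of different genes also depends on the length by which each was divided. That length was estimated at 13929 bases for Flt1, with 2006 to 2440 reads. For Ocln it was 4225 bases, with 476 to 779 reads.

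The median ratio of highest to lowest library was 1.57 over the 10 genes, against 1.31 over the 12052 genes with a median of at least 1 FPKM. Of the 10, 7 exceeded the median of all genes. Slc2a1 varied more than 91.7% of those genes and Abcb1a more than 30.7%. The lowest value fell in replicate 1 for 6 of the 10 genes and in replicate 5 for 3, while 9.06% of all 12052 genes were lowest in replicate 1 and 26.0% in replicate 5. The highest value fell in replicate 2 for 4 of the 10 genes and in replicate 7 for 3, against 11.7% and 12.9% of all genes.

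Pecam1 was next used as a yardstick, since it marks endothelium without being a barrier gene. Cldn5 kept almost the same proportion to Pecam1 in every library, 2.46, 2.57, 2.32, 2.34, 2.35, 2.47 and 2.39 in replicates 1 to 7, a 1.11-fold range. Per unit of Pecam1, Slc2a1 ranged from 5.02 in replicate 5 to 9.49 in replicate 3, and Mfsd2a from 0.858 in replicate 5 to 1.54 in replicate 1. Slco1a4 was lowest in replicate 4, at 1.46, and highest in replicate 5, at 2.30. The genes that varied most relative to Pecam1 were thus Slc2a1 (1.89-fold), Mfsd2a (1.80-fold) and Slco1c1 (1.64-fold), and the least variable were Cldn5, Abcb1a (1.20-fold) and Flt1 (1.28-fold).

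Mfsd2a and Slco1a4 moved apart. The ratio of Mfsd2a to Slco1a4 was 0.893, 0.800, 0.858, 1.04, 0.373, 0.441 and 0.510 in replicates 1 to 7, a 2.79-fold range. By contrast, the ratio of Slc2a1 to Mfsd2a stayed between 5.44 and 6.66.

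Whether the genes varied together was measured on log2(FPKM + 1) for all 45 pairs. Pearson's r was positive in 33 pairs and negative in 12, with a median of 0.29 (0.34 without replicate 5). Leaving out replicate 5 reversed the sign of several r of Ocln. They went from 0.436 to -0.457 with Mfsd2a, 0.469 to -0.276 with Slc2a1, -0.032 to 0.608 with Tek and -0.178 to 0.622 with Slco1a4. An exact two-sided permutation test over the libraries gave an unadjusted p under 0.05 in 4 pairs. None passed after adjustment over all genes tested. The smallest p that 7 libraries allow is 0.000198. A pair could pass that adjustment only if many other genes had similarly small p-values. No adjustment over the 45 pairs alone was made, so the adjusted result cannot decide whether a pair varied together. In 3 pairs r was above 0.9: Cldn5 with Pecam1, Slc2a1 with Mfsd2a, and Tek with Slco1a4.

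**Figure D2:**
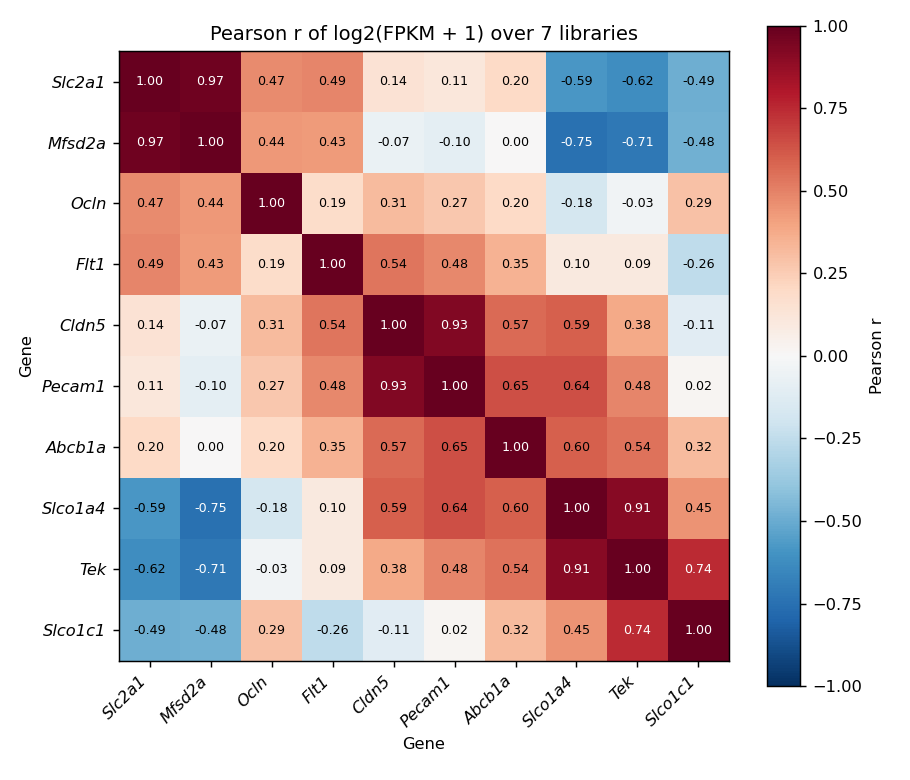
Pearson r between each pair of the 10 genes on log2(FPKM + 1), over 7 libraries. Red is positive and blue negative; Slc2a1 and Mfsd2a (0.97) have negative values with Slco1a4, Tek and Slco1c1, and Cldn5 has its highest value with Pecam1 (0.93).

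Cldn5 and Pecam1 ranked the libraries identically. Their r was 0.927 (exact permutation p = 0.000198, the smallest that 7 libraries allow; adjusted p = 1.0), Spearman's rho was 1 (exact permutation p = 0.000397), and r was 0.977 without replicates 1 and 2, the 2 farthest from the median of Cldn5. The slope of Pecam1 on Cldn5 in limma was 0.78 ± 0.26 (SE) log2 units per log2 unit, and its adjusted p was 1.0. The other 8 genes had lower r with Cldn5, between 0.594 for Slco1a4 and -0.113 for Slco1c1, and Slc2a1 had 0.143 and Mfsd2a -0.0687. Leaving out replicate 2 gave r = -0.209 for Slc2a1 and 0.507 for Slco1c1.

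No gene was called with Cldn5 across 12051 genes (0% in either direction) by limma-trend at an adjusted p under 0.05, and 0 of the 9 other barrier genes were. At an unadjusted p under 0.05 limma gave 142 genes. Exact permutation of r called 0 genes, with 191 unadjusted, and that of rho called 0, with 236 unadjusted. With 7 libraries these tests can call a gene only if many others reach similarly small p-values. Their counts of 0, here and below, therefore do not show that no gene varied with the predictor. Prdm16, a transcriptional regulator, had the highest r with Cldn5 (0.982), followed by Nhlrc3 (0.940) and Pecam1. Among the genes of smallest limma p with a positive slope was Ctla2a, which endothelial cells express, at 3.76 to 7.42 FPKM. Those of smallest p with a negative slope were Pdia4 and Il33, a nuclear cytokine, each with a limma adjusted p of 1.0.

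**Figure D3:**
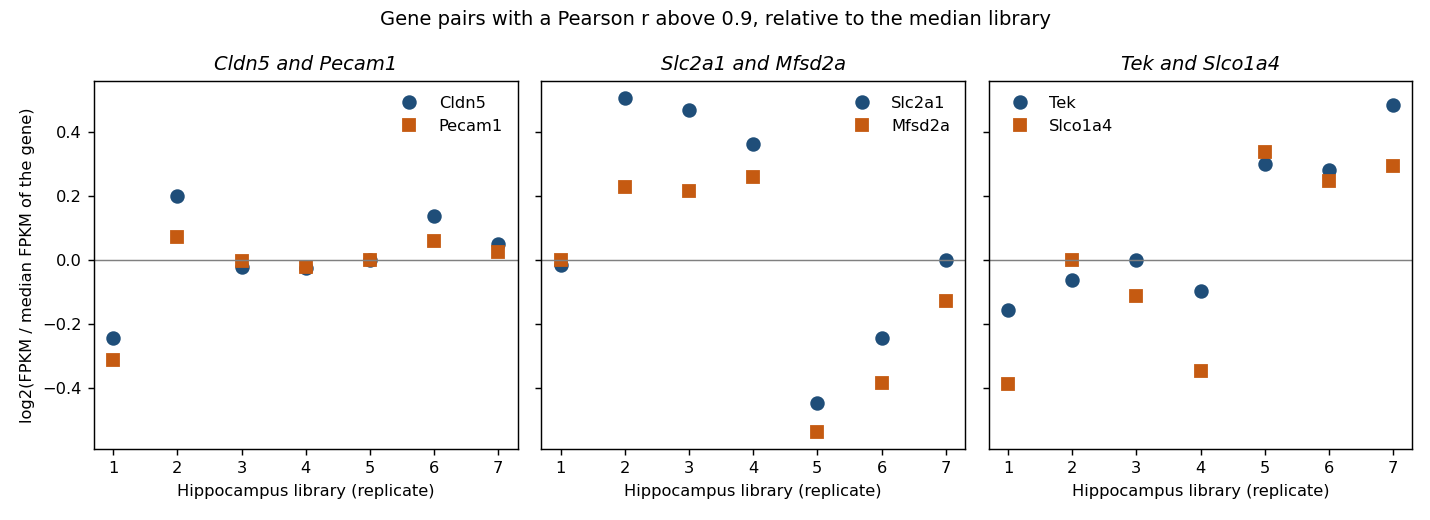
Levels of 3 gene pairs relative to each gene's median library, as log2(FPKM / median FPKM), in replicates 1 to 7. Cldn5 and Pecam1 are lowest in replicate 1 and highest in replicate 2, Slc2a1 and Mfsd2a are high in replicates 2 to 4 and low in 5 and 6, and Tek and Slco1a4 are high in replicates 5 to 7.

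Slc2a1 and Mfsd2a had an r of 0.969 (exact permutation p = 0.00218; adjusted p = 0.0651 over the genes tested with Mfsd2a), a rho of 0.857 (exact permutation p = 0.0238) and an r of 0.918 without replicates 5 and 6, the farthest from the median of Mfsd2a. In limma, Slc2a1 rose by 1.24 ± 0.13 (SE) log2 units per log2 unit of Mfsd2a, with an adjusted p of 0.0124. It was the only one of the 9 other barrier genes that passed, where 3.49% of 12051 genes passed with a positive slope and 1.78% with a negative one. Without replicate 2 the adjusted p was 0.0596 and without replicate 5 it was 0.0633, with slopes of 1.17 and 1.25. With Slc2a1 as the predictor the limma adjusted p of Mfsd2a was 0.0509, and no gene passed (226 did without replicate 1), although 2918 had an unadjusted p under 0.05; exact permutation of r called 0, with 2612 unadjusted.

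Tek and Slco1a4 had an r of 0.908 (exact permutation p = 0.00873; adjusted p = 0.400 over the genes tested with Tek), a rho of 0.929 (exact permutation p = 0.00675) and an r of 0.894 without replicates 5 and 7. The limma slope of Slco1a4 on Tek was 1.37 ± 0.26 (SE), with an adjusted p of 0.124. Both had negative r with Mfsd2a, -0.747 for Slco1a4 (exact permutation p = 0.0687; limma adjusted p = 0.0952) and -0.712 for Tek (exact permutation p = 0.0792; limma adjusted p = 0.152). Pecam1 and Slco1a4 had an r of 0.641 (exact permutation p = 0.0492; adjusted p = 0.374 over the genes tested with Slco1a4). That r was -0.0432 without replicates 1 and 4, the farthest from the median of Slco1a4. It was 0.664 without replicates 1 and 2, the farthest from the median of Pecam1. With each library left out in turn it lay between 0.415 and 0.753.

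With all 7 libraries, limma-trend called 420 genes with a positive and 214 with a negative slope on Mfsd2a, and at most 1 gene on each of the other 9. Exact permutation of r called 147 genes and that of rho 0. The limma count depended on single libraries: it was 0 without replicate 2, 7 without replicate 5, 42 without replicate 4, 125 to 239 without replicates 1, 3 or 7, and 1102 without replicate 6. The order of the predictors changed as well: without replicate 5, 355 genes were called with Slco1c1 and 26 with Tek, and without replicate 1, 262 with Ocln and 226 with Slc2a1, against 125 with Mfsd2a. The 7 genes that passed with Mfsd2a without replicate 5, all also called with it, were Sox18, an endothelial transcription factor, Arrdc2, C2cd4b, Cdkn1a, Rasd1, Plin4 and Spsb1. With all 7 libraries the smallest p among positive slopes was that of C2cd4b (slope 1.54 ± 0.12, limma adjusted p = 0.00689), at 1.16 FPKM in replicate 5 and 3.69 FPKM in replicate 4. Fkbp5, a co-chaperone of steroid receptors, had a slope of 1.47 ± 0.16 (limma adjusted p = 0.0124). Hif3a, a member of the hypoxia-inducible factor family, had a slope of 1.44 ± 0.15 (limma adjusted p = 0.0124). Among negative slopes were Grm3, a metabotropic glutamate receptor gene (-0.91 ± 0.10, limma adjusted p = 0.0124), and Efnb2, the arterial ephrin-B2 (-0.94 ± 0.14, limma adjusted p = 0.0162).

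The vascular lists were read from the same fit, in which 3.49% of all 12051 genes rose and 1.78% fell after adjustment. Of 20 pan-endothelial genes tested, 2 rose with Mfsd2a and 0 fell: Sox18 (slope 1.28 ± 0.17) and Nos3, endothelial nitric oxide synthase (0.86 ± 0.17). Their median slope was 0.20, against -0.02 over all 12051 genes. Sox18 had 3.24, 4.10, 4.43, 4.37, 2.21, 1.84 and 2.58 FPKM in replicates 1 to 7, with its 3 highest values in the same libraries as Mfsd2a. Of 19 other barrier transport genes, 2 rose and 2 fell. Those that rose were Slc7a5, the large neutral amino acid transporter LAT1 (0.73 ± 0.17), and Lrp1, a lipoprotein receptor (0.41 ± 0.09). Those that fell were Slc16a1, the lactate transporter MCT1 (-0.98 ± 0.22), and Slc40a1, the iron exporter ferroportin (-0.95 ± 0.19). With each library left out in turn, Sox18 passed in 5 of 7 fits, Nos3 and Slc40a1 in 2, Slc7a5 and Slc16a1 in 1 and Lrp1 in 0.

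Of 12 other tight junction genes tested, Lsr, the receptor that forms tricellular junctions, rose with Mfsd2a (0.98 ± 0.24, limma adjusted p = 0.04995; 1 of 7 fits with a library left out), and 0 fell. Over all 12051 genes 3.49% rose and 1.78% fell. In the lists of Wnt barrier genes (16 tested), VEGF and angiopoietin genes (9), fenestrated or activated endothelium (6), pericytes and smooth muscle (11) and basement membrane (7), limma called 0 genes. At an unadjusted p under 0.05 those lists held 1, 2, 0, 1 and 2 genes with a positive slope and 3, 2, 1, 1 and 0 with a negative slope, where 13.5% of all 12051 genes had a positive and 13.6% a negative slope at that level. Fzd4, the receptor through which Norrin and Wnt signals maintain the barrier, had a slope of 0.18 ± 0.18. Levels in the list of fenestrated or activated endothelium were uneven, and 6 of its 10 genes had a median of at least 1 FPKM. Highest were Ackr1 (17.7 to 24.9 FPKM), Vcam1 (7.50 to 12.8 FPKM) and Cav1 (4.03 to 5.80 FPKM). Plvap, a protein of fenestrated endothelium, had 1.81 to 2.53 FPKM, and Selp, a selectin of activated endothelium, was listed at 0 in 6 of 7 libraries.

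Genes of other brain cells moved with Mfsd2a as well. Of 8 hippocampal neuron genes 4 rose (Prox1, C1ql2, Slc17a7 and Camk2a) and of 8 myelin genes 2 fell (Mog and Cnp). Over all 12051 genes 3.49% rose and 1.78% fell. After adjustment 2 of 10 astrocyte endfoot genes rose and 0 fell, while 0 of 8 microglial genes rose and 2 fell. At an unadjusted p under 0.05, 2 endfoot genes had a positive and 2 a negative slope, and the median slope was -0.03. Of 8 microglial genes 1 had a positive and 5 a negative slope at that level, with a median slope of -0.44. Of 8 myelin genes 0 had a positive and 7 a negative slope at that level. Of 6 striatal neuron genes tested, 0 had a positive and 6 a negative slope at that level, with a median slope of -3.82. After adjustment 0 of these striatal genes passed. The summed striatal level was highest in replicate 5, where Mfsd2a was lowest. Among all genes 13.5% had a positive and 13.6% a negative slope at that level. The summed level of the 8 hippocampal neuron genes was 1502, 1633, 1483, 1660, 978, 1330 and 1276 FPKM in replicates 1 to 7, and that of the 8 myelin genes was 1237, 979, 1238, 1186, 1696, 1621 and 1833 FPKM. With each library left out in turn, Prox1, C1ql2, Slc17a7, Camk2a, Mog and Cnp passed in 1 (Slc17a7) to 4 (C1ql2) of 7 fits. None of these marker genes was at 0. The part of tissue composition in the slopes on Mfsd2a was not tested.

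**Figure D4:**
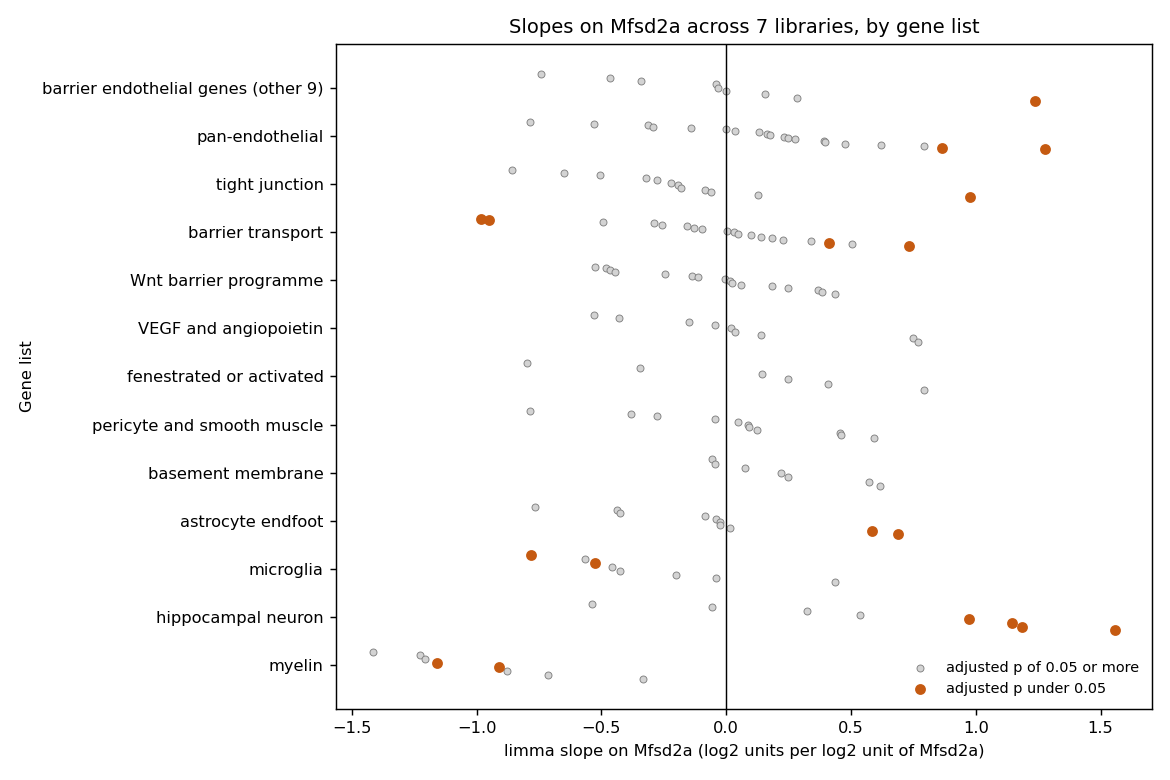
Limma slopes on Mfsd2a of each tested gene in 13 gene lists, in log2 units per log2 unit of Mfsd2a, over 7 libraries; orange points have an adjusted p under 0.05. Among the barrier genes Slc2a1 alone passes (1.24), and of the 8 hippocampal neuron genes 4 pass with a positive slope. The lists of striatal neurons, choroid plexus, meninges, blood and close relatives of the genes are not drawn.

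Tek called 1 gene in limma-trend, with a positive slope (0.0083% of 12051): Fos, an immediate early gene (slope 2.52, limma adjusted p = 0.0462). The count was 26 without replicate 5, among them the myelin genes Mog, Mal and Opalin and the adhesion molecule Vcam1, and 0 without any other library. Exact permutation of r called 0 genes with Tek (1475 unadjusted). Among tight junction genes Cldn11, the myelin claudin, had an r of 0.976 with Tek. All 8 myelin genes had a positive slope on Tek at an unadjusted p under 0.05, where 9.21% of all genes did, and 0 of 8 passed after adjustment. The same held for 8 of 8 with Slco1a4 (8.22% of all genes) and 7 of 8 with Slco1c1 (7.98%). The summed myelin level was highest in replicates 5, 6 and 7, the libraries with the highest Tek and Slco1a4. Its part in these relations was not tested.

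Slco1c1 had no gene called in limma-trend, with 1307 unadjusted, but 355 were called without replicate 5, and its highest r was with Dip2a (0.993). Choroid plexus, which is known to express Slco1c1, was represented by 12 genes whose summed level was highest in replicate 7, where Slco1c1 was also highest, and next highest in replicate 3. Of the 5 choroid plexus genes tested, 3 had a positive slope on Slco1c1 at an unadjusted p under 0.05, where 7.98% of all genes did, and 0 passed. The count was also 3 of 5 on Tek, where 9.21% of all genes did, and 4 of 5 on Abcb1a, where 2.75% did. In replicate 3, however, Slco1c1 was at 23.1 FPKM, below its 25.7 FPKM in replicate 6. Of 10 astrocyte endfoot genes, 3 had a positive and 0 a negative slope on Slco1c1 at an unadjusted p under 0.05, and 0 passed. Among them Aqp4 was lowest in replicate 2 (20.3 FPKM) and highest in replicate 7 (43.1 FPKM), as was Slco1c1. The part of choroid plexus or of astrocytes in Slco1c1 was not tested. Slco1a4 had its highest r with Gm16701 (0.988) and Sox9 (0.987), an astrocyte transcription factor, and no gene was called with it in limma-trend (1956 unadjusted). Exact permutation of r also called 0 genes with Slco1c1 (1259 unadjusted) and with Slco1a4 (1586 unadjusted).

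Ocln had its highest r with Marcksl1 (0.980), Golga7b (0.979) and Npy1r (0.964). Without replicate 5 these were 0.913, 0.918 and 0.851. No gene was called with Ocln (1487 unadjusted), Abcb1a (380), Pecam1 (149) or Flt1 (129) in limma-trend with all libraries. For Ocln the count was 262 without replicate 1 and 86 without replicate 6. Exact permutation of r also called 0 for each, with 679 unadjusted for Ocln, 454 for Abcb1a, 214 for Pecam1 and 210 for Flt1. The genes nearest to Abcb1a were Emc6 (r = 0.981) and Cln3 (0.965). Those nearest to Flt1 were Tbcd (0.938) and Gm19378 (0.906), and those nearest to Slc2a1 were Ehd2 (0.994), which coats caveolae, and Atxn7l2 (0.991). Ehd2 had 1.23 to 2.53 FPKM and a limma adjusted p of 0.0509 with Slc2a1.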

How the data were processed

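The authors deposited 1 table of FPKM values for 27583 genes in 7 libraries. The submitters' processing notes name mm10 as the build. Libraries were SMARTer preparations of total RNA, per the labels' protocols. What aligner, counter, annotation and strand setting were used is not given in the sources used here. Since FPKM is relative to each library's total, abundant genes of 1 library lower its other values. Columns were matched to samples by library name. The genes and the 18 lists (210 genes) were chosen with earlier results of these data known.

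Values were analysed as log2(FPKM + 1), which understates changes of low genes, over the 12052 genes whose median reached 1 FPKM. For each of the 10 genes as predictor, limma-trend gave a slope for the other 12051 genes, with Benjamini-Hochberg adjustment at 0.05. Pearson's r and Spearman's rho had exact two-sided permutation p-values, adjusted in the same way, so 10 fits and 45 pairs were examined. With 7 libraries these p-values cannot fall below 0.000198 for r and 0.000397 for rho. A single gene therefore cannot pass the adjustment by itself, however closely it varied with the predictor. A pooled r was given because no predictor had a gap above 50% of its range with at least 2 libraries on each side.

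The reads behind each gene were recovered from the steps between low FPKM values. Depth was placed with 39 genes of 1 exon, of which 36 came within 1% of it. It is an estimate. The counting intervals used the recovered reads and not this depth, while the lengths given for Flt1 and Ocln did use it.

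Named genes are the 10 genes, the 10 of smallest limma p in each direction for Cldn5, the 3 of highest r with each gene, and in each list the 3 of highest median and the 2 of largest ratio. Genes quoted beyond these, among them those of smallest p with Mfsd2a and the called list genes, were chosen after their values were seen. Alternatives were a pseudocount of 0.1, a sum of 1000000 with and without mitochondrial genes, upper-quartile scaling, a median FPKM of at least 0.1 or 5, no filter, limma without the trend, and leaving out each library. For Mfsd2a as predictor, those other than leaving out libraries were chosen after seeing the data. Promoters came from RefSeq. Fits ran in limma 3.58.1 under R 4.3.3, and the rest in Python 3.11.15 with scipy 1.17.1, numpy 2.4.6 and pandas 2.3.3, with figures by matplotlib 3.10.9. Some genes of the lists are not reported here.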

Additional observations from a re-analysis of the deposited data

Results flagged for a closer look

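Pecam1 was low in replicate 1. Its value there, 5.76 FPKM, was separated from the next lowest library by 0.731 of the whole range of the 7 libraries (5.76 to 7.50 FPKM), a larger gap than Dixon's 95% limit for 7 values. Chance flags about 1 in 20 groups of values, and both ends of the range were examined for each of the 10 genes. Cldn5 was also lowest in replicate 1, at 14.1 FPKM, with a gap of 0.457 of its range, which did not pass the limit.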

How the results depend on the processing

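With Cldn5 as predictor 0 genes were called under each alternative run. With Mfsd2a the count of 634 fell to 356 at a median FPKM of at least 0.1 and to 19 with no filter, which tests more genes; it was 476 to 730 under the other scalings, pseudocount, filter and trend settings, all chosen after seeing the data. Leaving out 1 library gave 0 (without replicate 2) to 1102 (without replicate 6) genes for Mfsd2a, 0 to 226 for Slc2a1, 0 to 26 for Tek, 0 to 262 for Ocln and 0 to 355 for Slco1c1, the largest counts for the last 4 being without replicates 1, 5, 1 and 5. The slope of Slc2a1 on Mfsd2a was 1.17 to 1.30 with each library left out, and passed in 5 of 7 of these fits. The r of Mfsd2a with Cldn5 changed sign when values were rescaled to sum to 1000000 (0.0667) and without replicate 6 (0.135), that of Slc2a1 without replicate 2 (-0.209) and that of Slco1c1 without replicate 2 (0.507). With each library left out in turn these r lay between -0.393 and 0.135, -0.209 and 0.349, and -0.294 and 0.507 for the 3 genes in that order. The ratio of highest to lowest library became 1.17 for Cldn5 and 1.07 for Pecam1 without replicate 1, 1.27 for Ocln without replicate 5 and 1.37 for Slco1c1 without replicate 2. The cause of these changes was not tested. Other scalings moved the median gene by less than 0.1 on the log2 scale. No paired analysis was possible because all libraries stand in 1 group.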

Other observations

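Further endothelial genes differed in single libraries. Vwf, the von Willebrand factor gene of larger vessels, had 6.34 FPKM in replicate 2 against 1.32 to 1.94 FPKM in the other 6 libraries. Acvrl1, the endothelial BMP receptor ALK1, had 8.27 FPKM in replicate 5 against 2.28 to 3.51 FPKM elsewhere. These 2 genes were picked for these values. Among arterial smooth muscle genes, Acta2 had its lowest value, 4.17 FPKM, in replicate 1 and its highest, 9.75 FPKM, in replicate 4, and Tagln 2.92 and 8.30 FPKM in the same libraries. The summed level of 14 pericyte and smooth muscle genes was lowest in replicate 1, at 76.9 FPKM, and 89.7 to 103 FPKM in the others. Replicate 1 was thus lowest for this list as for Cldn5 and Pecam1. It was also lowest for 10 meningeal and fibroblast genes, which summed to 26.3 FPKM there and 34.8 to 49.2 FPKM elsewhere. Of 9 such genes tested, 4 had a positive slope on Pecam1 at an unadjusted limma p under 0.05, where 0.946% of all genes did. At that level 0 had a negative slope, and 0 passed after adjustment. The part of meningeal content was not tested. The summed level of 24 pan-endothelial genes was not lowest in replicate 1. It was 104.7 FPKM in replicate 6, 104.9 FPKM in replicate 5 and 105.3 FPKM in replicate 1, and highest, at 137 FPKM, in replicate 2.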
